A study of Homo sapiens with 18 samples.

Results

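The respiratory chain of HAIR-M cells, a line of marginal zone lymphoma (a cancer of mature B cells), is described here through its nuclear-encoded subunit genes. Members were protein-coding genes chosen by symbol: NDUFA, NDUFB, NDUFC, NDUFS and NDUFV genes for complex I, SDHA to SDHD for complex II, UQCR genes and CYC1 for complex III, COX genes numbered from 4 to 8 and followed by A, B or C for complex IV, and ATP5F1, ATP5M and ATP5P genes for complex V. This gave 86 of 60483 gene identifiers, with 38 in complex I, 4 in complex II, 10 in complex III, 15 in complex IV and 19 in complex V. The symbol pattern left out COX4I1 and took in NDUFA4, which is now assigned to complex IV, and COX7A2L, a factor that joins complexes into supercomplexes. The rule uses symbols and no measured value. The study exposed HAIR-M to DMSO, the vehicle, or to 5 nM copanlisib, an inhibitor of phosphoinositide 3-kinase, for 4, 8 or 12 h, with 3 libraries in each of the 6 groups and 18 in all. All groups shared the line, medium and 10% serum, so every result concerns this cell line alone. The labels do not say that replicates were separate cultures, and p-values then measure only the spread between these libraries.

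Complexes I to IV pass electrons from NADH and succinate to oxygen, and complexes I, III and IV pump protons across the inner mitochondrial membrane. Complex V, the ATP synthase, lets the protons back and makes ATP. Most subunits are encoded in the nucleus, and a core few of complexes I, III, IV and V are made inside the mitochondrion from its own genome, so the 2 gene sets must meet in 1 machine. In B cells, phosphoinositide 3-kinase signalling is known to promote growth and metabolism, and the transcription factors NRF1, GABPA, YY1 and the ERR family are known to bind promoters of many subunit genes.

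Between 13587017 and 25566761 reads per library were assigned to genes (median 18947426), of which members took 0.851% to 1.13%. B cell marker genes summed to between 1715 and 2595 CPM (counts relative to each library's size, scaled by the trimmed mean of M values), with all 8 detected. The extraction text of the labels speaks of retinas, but 8 of 10 retina markers were below 1 CPM in every library and the list summed to at most 13.96 CPM, with PDE6B the highest at 10.4 CPM. The T and NK cell list reached 19.8 CPM and the myeloid list 19.6 CPM. The copanlisib libraries at 4 h stood apart: replicates 1 and 2 had 8.73% and 5.22% unmapped reads and 12.4% and 12.6% of reads on the mitochondrial genome, against at most 2.82% and 10.498% in the other 16 libraries. The main results at 4 h are given also with replicate 3 as the one copanlisib library of that time, a fit that assumes that it varies like the other groups. In these bulk samples, a lower share of cells expressing a gene and less RNA per cell cannot be told apart.

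Of the 86 members, 79 had enough reads to be tested. The most abundant transcripts per length were ATP5F1B, the catalytic beta subunit of the ATP synthase, at 612 CPM per kilobase, and UQCRH, the hinge protein of complex III, at 574 CPM per kilobase. COX6B1 and COX7C, small subunits of complex IV, stood at 451 and 442 CPM per kilobase, and NDUFS8, an iron-sulfur subunit, led complex I with 214. In complex II the 4 levels ran from 57.9 CPM per kilobase for SDHA, the flavoprotein, to 128 for SDHC, a membrane anchor. These orders depend on the annotated transcript length used, which was 353 bases for NDUFS8 and 460 for SDHC. In CPM without length, NDUFV1 led complex I at 298, with NDUFS8 at 75.6. Complex II then ran from 58.9 CPM for SDHC to 120 CPM for SDHA. The 7 members below the filter were COX6A2, COX6B2, COX7A1, COX7B2, COX8C, ATP5MGL and the readthrough gene ATP5MF-PTCD1, with at most 11 reads in any library. COX6A2 and COX7A1 are the heart and muscle isoforms of complex IV subunits, COX6B2 and COX8C are known from testis, and COX7A1 and COX7B2 had no read in any library. Their counterparts COX6A1, COX6B1, COX7A2 and COX7B were all tested.

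More members changed with time in culture than with the drug. In DMSO, 53 of 79 members (67.1%) were higher at 12 h than at 4 h and 3 (3.80%) were lower, where 23.2% of all 16122 genes tested rose and 25.4% fell (edgeR quasi-likelihood test, adjusted p under 0.05). The median change over the members was 0.25 on the log2 scale, or 18.7%, against -0.01 over all genes. Summed over all members, the level was 9440, 8953 and 9654 CPM in the DMSO libraries at 4 h, 10260, 9938 and 9909 CPM at 8 h, and 10804, 10493 and 11326 CPM at 12 h. Every 8 h library lay above every 4 h library and below every 12 h library. The rise came in steps, since 51 of the 53 members had a mean change above 0 in both intervals, and 14 passed the test in both.

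**Figure D1:**
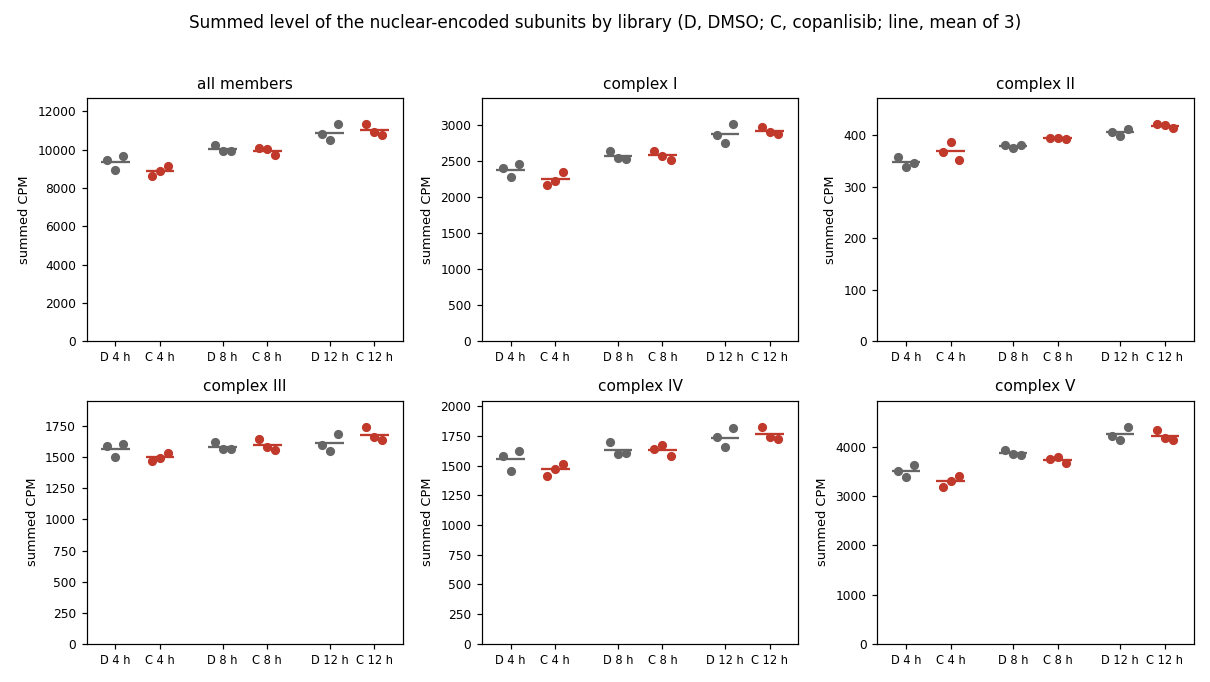
Summed CPM of the members (y axis) in each library, for all 86 members and for each complex, in the 6 groups of 3 libraries (D, DMSO, grey; C, copanlisib, red; hours on the x axis; line, group mean). All members together rose from a mean of 9349 CPM in DMSO at 4 h to 10874 CPM at 12 h, and complex III moved least.

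The rise was uneven between the complexes. In complex V, 15 of 17 tested members rose in DMSO between 4 and 12 h with a median of 0.30 (log2), and all 4 peripheral stalk genes (ATP5PB, ATP5PD, ATP5PF and ATP5PO, which hold the catalytic head still) and all 5 small membrane subunits were among them. In complex I, 25 of 38 rose and 2 fell, with a median of 0.27, and the counts were 4 of 7 for the core subunits that carry the flavin and iron-sulfur centres and 21 of 31 for the accessory subunits. All 4 genes of complex II rose. In complex IV, 5 of 10 rose (median 0.13), and in complex III 4 of 10 rose and 1 fell (median 0.08). Of the 4 catalytic and core genes of complex III, only CYC1 (cytochrome c1) passed the test, at 0.17 (log2), a call lost without any 1 of 4 libraries. The small subunits UQCRQ (0.41) and UQCR10 (0.26) rose further. No difference between complexes was tested.

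ATP5MC1 had the largest rise of all members in DMSO. It encodes the c subunit of the rotor ring of the ATP synthase, and ATP5MC2 and ATP5MC3 encode the same mature protein from other loci. In DMSO its level was 82.4, 83.0 and 87.6 CPM at 4 h, 105, 99.7 and 104 CPM at 8 h, and 136, 140 and 151 CPM at 12 h. The 3 times did not overlap. The change from 4 to 12 h was 0.76 ± 0.06 (log2 ± SE, n = 3 per group; 68.9%; edgeR adjusted p = 8.06e-11). ATP5MC3 also rose, from 310, 304 and 337 CPM to 416, 413 and 460 CPM (0.44), while ATP5MC2 went from 264, 251 and 277 CPM to 246, 248.7 and 254 CPM and did not pass the test (-0.08 ± 0.06, edgeR adjusted p = 0.312). The 3 genes for this protein therefore did not share 1 course.

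Among the complex I genes, NDUFB6, an accessory subunit of the membrane arm, was at 35.1, 31.1 and 37.2 CPM in DMSO at 4 h and at 58.6, 53.4 and 57.4 CPM at 12 h (0.72 ± 0.06, edgeR adjusted p = 1.07e-09). NDUFB3, of the same arm, rose by 0.61 and NDUFA9, which sits near the quinone site, also by 0.61. All 12 h values of these genes lay above all 4 h values. NDUFA9 went from 11.8, 11.7 and 14.04 CPM to 18.3, 18.8 and 20.3 CPM. COX7B (0.32), COX6C (0.32) and COX6B1 (0.25) rose most in complex IV, and ATP5PF (0.50) came after ATP5MC1 in complex V. In complex II the changes were 0.31 for SDHC, 0.25 for SDHA, 0.21 for SDHB (the iron-sulfur subunit) and 0.17 for SDHD (the other anchor), the last lost when any 1 of 4 libraries was left out.

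Against this course, UQCRH fell in DMSO, from 357, 349 and 377 CPM at 4 h to 309, 295 and 329 CPM at 12 h. Its change was -0.21 ± 0.05 (log2 ± SE, edgeR adjusted p = 0.000307), with no overlap. NDUFV3, a small subunit of the NADH-binding module, fell by 0.17, and that call was lost without any 1 of 4 libraries. NDUFV2, a core iron-sulfur subunit, fell by 0.60, on only 28 to 90 reads per library, and the call was lost without DMSO replicate 2 at 4 h or replicate 3 at 12 h. UQCRH has near-identical processed copies elsewhere in the genome, and reads with more than 1 mapping place were left uncounted, so its level is uncertain.

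With copanlisib the course over time was similar. Between 4 and 12 h, 62 of 79 members (78.5%) rose and 2 (2.53%) fell, against 25.6% and 26.3% of all genes, with a median of 0.33 (log2). This count and median, and the overlap and correlations below, use all copanlisib libraries at 4 h, of which replicates 1 and 2 stood apart. With replicate 3 alone for copanlisib at 4 h, only the sizes of the largest rises are given below. The DMSO and copanlisib comparisons have no library in common: 47 members rose in both, which is 88.7% of the DMSO list and 75.8% of the copanlisib list. Of all 79 members, 78.5% rose with copanlisib and 67.1% in DMSO, so a large overlap follows from these shares alone. No overlap was counted over all genes. Across the 79 members the changes in the 2 arms had a Pearson r of 0.68 and a Spearman rho of 0.59, a description over genes that share their libraries. ATP5MC1 rose by 0.76 in copanlisib as it did in DMSO. The largest other rises with copanlisib were NDUFA9 (0.81), NDUFB7 (0.77) and NDUFS6 (0.74) in complex I, and ATP5MC3 (0.65) and ATP5F1D (0.63) followed ATP5MC1 in complex V. With replicate 3 alone at 4 h these rises were smaller: 0.60 for ATP5MC1, 0.78 for NDUFA9, 0.34 for NDUFB7, 0.64 for NDUFS6, 0.52 for ATP5MC3 and 0.14 for ATP5F1D, the last no longer called. Complex II gave SDHA 0.34 and SDHC 0.34, complex III UQCRQ 0.57 and complex IV COX6C 0.58, with 0.33, 0.37, 0.37 and 0.48 for these 4 with replicate 3 alone at 4 h. The 2 that fell were NDUFV2 and UQCRHL, an intronless gene nearly identical to UQCRH whose reads cannot be told apart with confidence.

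**Figure D2:**
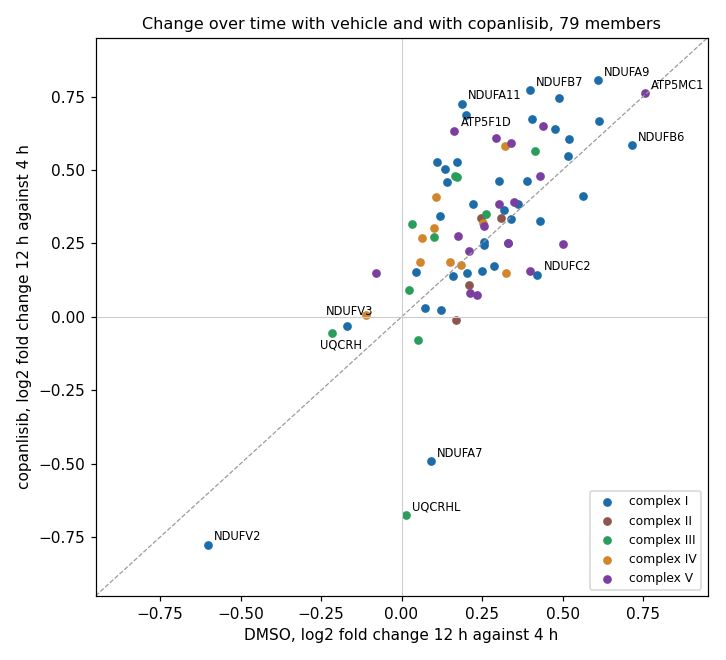
Log2 fold change from 4 to 12 h in DMSO (x axis) and in copanlisib (y axis) for the 79 tested members, each point 1 gene coloured by complex; the dashed line marks equal change. Most points lie above 0 on both axes, with ATP5MC1 at 0.76 on each, and NDUFV2 and UQCRHL among the few far below 0 with copanlisib.

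Member transcripts are short, with a median of 711 bases against 2011 for all genes tested, and their median GC content was 50.6% against 49.6%. Over the members, shorter transcripts rose more in DMSO (Spearman rho -0.35, n = 79, against -0.02 over all genes). In a fit with an offset for GC content and length, the median rise of the members was 0.23 in DMSO and 0.26 in copanlisib, against -0.02 for all genes in each.

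At 8 and 12 h copanlisib left most of the family near its DMSO level. At 8 h, 5 of 79 members (6.33%) were lower and 1 (1.27%) higher, against 18.3% and 14.8% of all genes (edgeR, adjusted p under 0.05). At 12 h, 4 (5.06%) were lower and 4 (5.06%) higher, against 16.5% and 13.8%. The median change was -0.02 at 8 h and 0.01 at 12 h (log2), and each of the 79 changes was smaller than 0.5 at both times. Summed over all members, the copanlisib libraries held 10067, 10006 and 9711 CPM at 8 h and 11310, 10901 and 10783 CPM at 12 h. These ranges overlap those of the DMSO libraries given above.

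**Figure D3:**
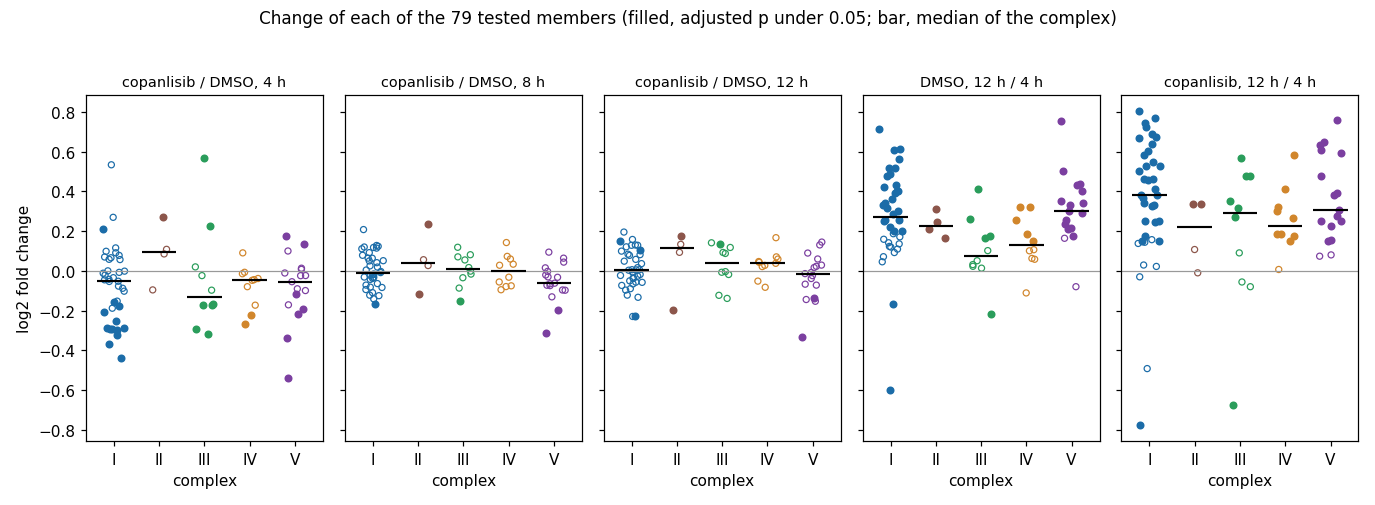
Log2 fold change (y axis) of each tested member by complex (x axis) for copanlisib against DMSO at 4, 8 and 12 h and for 12 h against 4 h in each arm; filled points passed the edgeR test at an adjusted p under 0.05 and bars are medians. At 8 and 12 h the points gather around 0 with 6 and 8 filled, while 53 and 62 members rose over time.

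These counts changed with the fit. Fitted on the 6 libraries of each comparison alone, 12 members were lower and 8 higher at 8 h, and 8 were lower and 17 higher at 12 h, while 24.3% and 20.9% of all genes passed in each direction at 8 h and 22.1% and 19.7% at 12 h. With the offset for GC content and length, 10 members were lower and 16 higher at 12 h, against 18.2% and 19.6% of all genes.

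ATP5MC1 was lower with copanlisib at every time. Its level was 62.4, 62.9 and 75.1 CPM at 4 h, 83.0, 83.4 and 82.0 CPM at 8 h, and 115, 117 and 107 CPM at 12 h, set against the DMSO values given above. All 3 copanlisib libraries lay below all 3 DMSO libraries at each time. The changes were -0.34 ± 0.06 at 4 h (edgeR adjusted p = 8.41e-05), -0.31 ± 0.06 at 8 h (edgeR adjusted p = 0.000161) and -0.33 ± 0.06 at 12 h (log2 ± SE, n = 3 per group, edgeR adjusted p = 7.08e-05), a change of -20.6% at 12 h. The calls at 8 and 12 h held under every alternative run, and that at 4 h was lost with replicate 3 alone for copanlisib (-0.17). ATP5MC2 and ATP5MC3 did not pass the test at 8 or 12 h, at 0.09 and -0.06 and at 0.13 and -0.01. The drug effect on ATP5MC1 at 12 h minus that at 4 h was 0.01 ± 0.08 (edgeR adjusted p = 0.979). With replicate 3 alone for copanlisib at 4 h, that difference was -0.17.

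NDUFAB1, the mitochondrial acyl carrier protein that is also a complex I subunit, was the other member called lower at all 3 times. It stood at 63.9, 62.0 and 72.6 CPM in DMSO and 51.8, 55.6 and 59.5 CPM in copanlisib at 4 h, at 77.9, 74.2 and 75.7 CPM against 66.5, 68.9 and 67.6 CPM at 8 h, and at 82.3, 81.7 and 90.9 CPM against 76.4, 71.4 and 69.8 CPM at 12 h. The groups did not overlap at any time. Its changes were -0.25 at 4 h, -0.17 at 8 h and -0.23 at 12 h (edgeR adjusted p = 0.00255, 0.0371 and 0.00541). The call at 4 h was lost with replicate 3 alone for copanlisib (-0.15, edgeR adjusted p = 0.146), that at 8 h without any 1 library, and that at 12 h without DMSO replicate 3. ATP5PB, subunit b of the peripheral stalk, was at 205, 203 and 200.02 CPM in DMSO and 174, 181 and 177 CPM in copanlisib at 8 h (-0.20 ± 0.04, edgeR adjusted p = 0.00128). At 12 h its change was -0.13, called but lost without any 1 of 4 libraries, and at 4 h it was -0.05 and not called (-0.12 with replicate 3 alone).

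Within complex II, 2 partner subunits moved in opposite directions. SDHA, the flavoprotein that oxidises succinate, was at 107, 112 and 111 CPM in DMSO and 129, 129 and 131 CPM in copanlisib at 8 h, and at 125, 121 and 125 CPM against 142, 140 and 136 CPM at 12 h. Its groups did not overlap at either time, and it was higher by 0.23 ± 0.04 at 8 h and 0.17 ± 0.04 at 12 h (edgeR adjusted p = 0.000134 and 0.00292). SDHB, the iron-sulfur subunit bound to it, was at 113, 106 and 113 CPM in DMSO and 103, 102 and 99.8 CPM in copanlisib at 8 h, and at 120, 117 and 125 CPM against 106, 106 and 104 CPM at 12 h. Its change was -0.12 at 8 h, a call lost without any 1 of 5 libraries, and -0.20 ± 0.05 at 12 h (edgeR adjusted p = 0.00155), where every alternative run kept the call. At 4 h neither passed, with 0.09 for SDHA and -0.10 for SDHB (0.10 and -0.13 with replicate 3 alone). The anchors SDHC and SDHD changed by 0.06 and 0.03 at 8 h and by 0.13 and 0.09 at 12 h, none past the test.

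Other calls at 8 and 12 h were small. UQCRFS1, the Rieske iron-sulfur protein of complex III, changed by -0.15 at 8 h, where it was called, and by -0.0039 at 12 h. NDUFA10, an accessory subunit of complex I (0.11), and UQCRH (0.14) were called higher at 12 h and not at 8 h. Each of these 3 calls was lost when any 1 of 4 or 5 libraries was left out. In complex IV, 0 of 10 members passed at 8 or 12 h in edgeR, DESeq2 or limma-voom, with 0 and 1 at an unadjusted p under 0.05 in edgeR. The effect at 12 h minus that at 8 h passed for 0 members in edgeR and likewise in DESeq2 and limma-voom, with 3 members at an unadjusted p under 0.05, and 0.0558% of all genes passed (7.42% at an unadjusted p under 0.05).

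**Figure D4:**
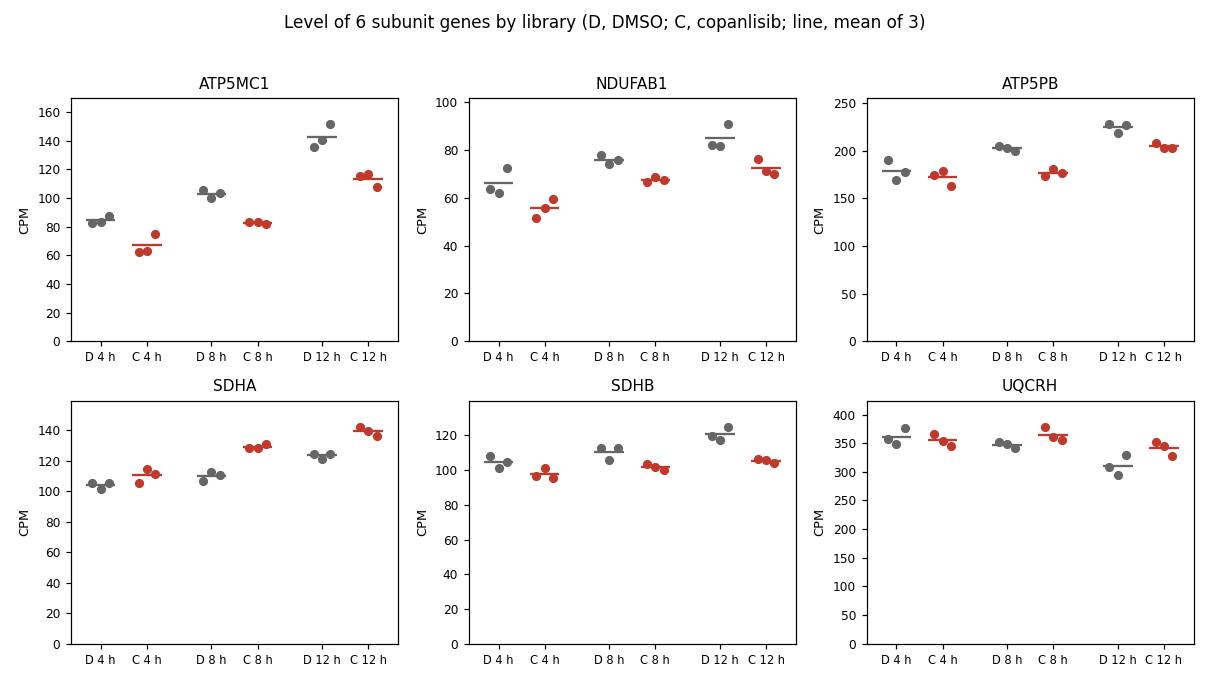
CPM (y axis, from 0) of 6 subunit genes in each library of the 6 groups (D, DMSO, grey; C, copanlisib, red; line, mean of 3). ATP5MC1 and NDUFAB1 sit lower with copanlisib at each time while rising with time in both arms, SDHA sits higher and SDHB lower at 8 and 12 h, and UQCRH falls with time in DMSO.

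The promoters of these genes are shown because the members move together with time while a few part from the rest with the drug. RefSeq windows from 250 bases before to 50 after the start were at hand for 68 of 86 members (GRCh38.p14). They were searched on both strands for 5 short motifs, none of which overlapped in the windows printed: TGCGCA (core of the NRF1 site), CCGGAAG (ETS family, as for GABPA), AAGATGGC (YY1), AAGGTCA (ERR family) and CACGTG (E-box of the MYC family). Of the 68 genes, 30.9% held the NRF1 core, 29.4% the ETS motif, 17.6% the YY1 motif, 16.2% the ERR motif and 10.3% the E-box, against 12.7%, 16.5%, 4.67%, 4.26% and 10.9% of 15843 protein-coding genes. A match is a string of letters and no measure of binding. The windows of 4 genes that responded to copanlisib and of NDUFA9, 5′ to 3′ on the gene's strand with motif letters in capitals, lie at chr17:48892537-48892836 (ATP5MC1, plus strand), chr16:23596267-23596566 (NDUFAB1, minus), chr5:218070-218369 (SDHA, plus), chr1:17053983-17054282 (SDHB, minus) and chr12:4648864-4649163 (NDUFA9, plus).
ATP5MC1: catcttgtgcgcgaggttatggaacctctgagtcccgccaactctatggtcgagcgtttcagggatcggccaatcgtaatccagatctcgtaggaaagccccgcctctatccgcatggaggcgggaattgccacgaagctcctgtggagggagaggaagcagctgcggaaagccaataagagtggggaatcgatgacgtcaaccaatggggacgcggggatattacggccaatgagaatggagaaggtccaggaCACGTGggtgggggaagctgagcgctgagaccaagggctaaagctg
NDUFAB1: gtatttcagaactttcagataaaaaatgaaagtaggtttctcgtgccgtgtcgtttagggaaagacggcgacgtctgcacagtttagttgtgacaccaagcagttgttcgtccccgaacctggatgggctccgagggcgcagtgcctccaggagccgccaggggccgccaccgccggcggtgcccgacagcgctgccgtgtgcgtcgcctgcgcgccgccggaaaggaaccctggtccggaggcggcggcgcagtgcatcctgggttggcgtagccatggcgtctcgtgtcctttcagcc
SDHA: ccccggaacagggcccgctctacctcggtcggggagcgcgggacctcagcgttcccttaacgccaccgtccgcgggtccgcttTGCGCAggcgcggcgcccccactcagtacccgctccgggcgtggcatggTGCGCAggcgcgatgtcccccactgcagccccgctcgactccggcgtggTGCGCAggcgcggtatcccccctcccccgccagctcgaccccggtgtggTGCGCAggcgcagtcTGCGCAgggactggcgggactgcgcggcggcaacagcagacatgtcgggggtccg
SDHB: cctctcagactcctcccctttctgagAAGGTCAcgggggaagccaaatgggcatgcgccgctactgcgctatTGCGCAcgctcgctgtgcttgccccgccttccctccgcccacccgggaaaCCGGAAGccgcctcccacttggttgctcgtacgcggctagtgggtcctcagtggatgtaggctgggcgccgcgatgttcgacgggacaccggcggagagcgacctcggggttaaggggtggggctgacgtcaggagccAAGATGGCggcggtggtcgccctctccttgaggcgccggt
NDUFA9: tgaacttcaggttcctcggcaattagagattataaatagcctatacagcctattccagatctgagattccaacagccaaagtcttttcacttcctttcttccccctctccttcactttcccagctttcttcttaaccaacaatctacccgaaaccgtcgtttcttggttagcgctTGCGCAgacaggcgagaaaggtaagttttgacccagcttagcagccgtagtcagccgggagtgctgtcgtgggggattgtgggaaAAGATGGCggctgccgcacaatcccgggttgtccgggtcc
The SDHA window held the NRF1 core 5 times, with first bases at -167, -118, -69, -20 and -5 from the start, and no other motif of the 5. The SDHB window held the ERR motif at -224, the NRF1 core at -178, the ETS motif at -128 and the YY1 motif at 11. ATP5MC1 held only an E-box, at 5, NDUFA9 the NRF1 core at -75 and the YY1 motif at 11, and the NDUFAB1 window none of the 5. The window of NDUFB6, which like NDUFA9 rose with time in DMSO, also held none of the 5 and is not printed (chr9:32573110-32573409, minus strand).

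At 4 h copanlisib gave more calls. Of the 79 members, 24 (30.4%) were lower and 6 (7.59%) higher than DMSO, against 20.7% and 17.7% of all genes, with a median of -0.05 (log2). With replicate 3 alone for copanlisib, 0 of 80 tested members were lower in edgeR (9 at an unadjusted p under 0.05) and 2 were higher, against 13.4% and 8.86% of all genes. The median was then -0.02. Of the 24 lower members, 21 still had a change below 0. Beside these calls stand the unmapped and mitochondrial shares of replicates 1 and 2 given above, whose part in the result was not tested.

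ATP5F1D, the delta subunit of the ATP synthase, had the largest fall at 4 h. It was at 108, 101 and 110 CPM in DMSO and at 54.5, 61.4 and 103 CPM in copanlisib. Replicates 1 and 2 lay far below the DMSO range and replicate 3 inside it. The fitted change was -0.54 ± 0.13 (edgeR adjusted p = 0.00141), and with replicate 3 alone -0.03. NDUFB7 showed the same split, with 59.3, 55.5 and 62.1 CPM in DMSO and 33.7, 41.8 and 62.1 CPM in copanlisib, as did NDUFA11 with 19.98, 22.8 and 23.5 CPM against 14.2, 14.5 and 20.6 CPM. Their changes were -0.37 and -0.44, and with replicate 3 alone 0.08 and -0.11. NDUFS6, an accessory subunit of the NADH module, was lower in all 3 copanlisib libraries (38.7, 35.7 and 41.8 CPM) than in all 3 DMSO libraries (50.8, 44.4 and 50.2 CPM), at -0.32 and with replicate 3 alone at -0.20, not past the test. In complex III the lowest were CYC1 (-0.32), UQCRQ (-0.29) and UQCRFS1 (-0.17), in complex IV COX5B (-0.27) and COX6C (-0.22), and in complex V ATP5MC1 (-0.34) and ATP5MC3 (-0.22) after ATP5F1D. None of these 7 was called with replicate 3 alone, at -0.09 for CYC1, -0.08 for UQCRQ, -0.14 for UQCRFS1, -0.09 for COX5B, -0.11 for COX6C, -0.17 for ATP5MC1 and -0.09 for ATP5MC3.

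The 6 members called higher at 4 h were UQCRHL (0.57), SDHD (0.27), UQCRB (0.22), NDUFB5 (0.21), ATP5PD (0.18) and ATP5F1C (0.14). The ATP5F1C call was lost without any 1 of 5 libraries and that of ATP5PD without copanlisib replicate 1 or 2. SDHD was at 0.07, UQCRB at 0.11, NDUFB5 at 0.12, ATP5PD at 0.04 and ATP5F1C at 0.01 with replicate 3 alone, none called. SDHD was at 95.96, 85.9 and 84.0 CPM in DMSO and at 110, 117 and 92.2 CPM in copanlisib, so the groups overlapped. UQCRHL was at 9.69, 8.67 and 10.1 CPM in DMSO and at 15.1, 14.4 and 12.4 CPM in copanlisib, and it kept its call with replicate 3 alone (0.39). The other call with replicate 3 alone was NDUFA13 (0.43), which did not pass with all libraries (0.07).

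The 4 h change was lower in transcripts of higher GC content. Over the members, Spearman's rho between GC content and change was -0.56 (n = 79), against -0.36 over all genes, and with replicate 3 alone for copanlisib it was 0.06 over the members. The 12 members in the top quintile of GC content over all genes had a median change of -0.29 at 4 h, where all genes of that quintile had -0.21, and of 0.06 at 8 h and 0.05 at 12 h. The offset for GC content and length left 26 members lower and 7 higher, against 19.9% and 20.8% of all genes. Of the members named at 4 h, CYC1 (-0.07), NDUFA11 (-0.15), NDUFB7 (-0.07), ATP5PD (0.09) and ATP5F1C (0.06) were no longer called with it.

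**Figure D5:**
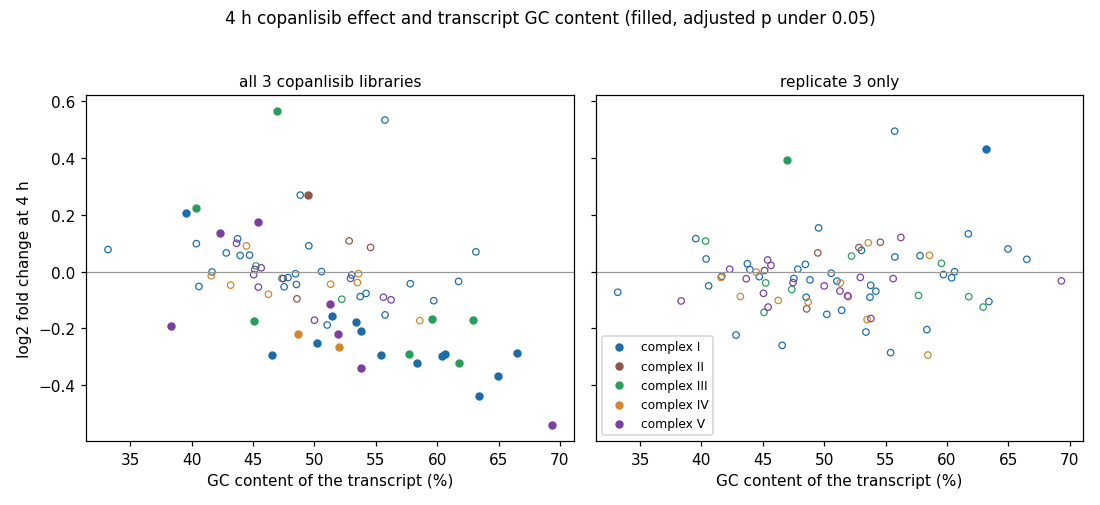
Log2 fold change of copanlisib against DMSO at 4 h (y axis) against the GC content of the transcript (x axis, %), each point 1 member coloured by complex and filled where the edgeR adjusted p was under 0.05, with all 3 copanlisib libraries (left) and with replicate 3 only (right). Spearman's rho is -0.56 on the left and 0.06 on the right, where 2 points are filled.

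The drug effect at 12 h differed from that at 4 h for 17 members (21.5%), with 14 of the differences above 0 and 3 below, against 16.7% of all genes in either direction (edgeR, adjusted p under 0.05). With replicate 3 alone for copanlisib at 4 h it differed for 1 member, NDUFB8, an accessory subunit of the membrane arm of complex I, against 5.29% of all genes. NDUFB8 was at 15.2, 14.4 and 16.3 CPM in DMSO and at 13.2, 11.8 and 12.54 CPM in copanlisib at 4 h, and at 16.8, 17.6 and 18.3 CPM against 21.3, 18.6 and 20.4 CPM at 12 h. Its libraries were thus all lower with the drug at 4 h and all higher at 12 h, with fitted changes of -0.29 (edgeR adjusted p = 0.00786) and 0.20 (edgeR adjusted p = 0.063). The 4 h change with replicate 3 alone was also -0.29 (edgeR adjusted p = 0.0772). The difference was 0.49 ± 0.12 (edgeR adjusted p = 0.00555).

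Of 4 tested subunits and carriers outside the symbol pattern, CYCS and COX4I1 were called at 8 and 12 h. CYCS, the soluble cytochrome c that carries electrons from complex III to complex IV, is no member by symbol. It was at 335, 344 and 329 CPM in DMSO and 215, 225 and 214 CPM in copanlisib at 8 h, with no overlap. Its changes were -0.32, -0.62 and -0.47 at 4, 8 and 12 h (edgeR adjusted p = 6.21e-06, 1.08e-10 and 2.06e-08), larger in size than that of any member at 8 and 12 h. The 4 h change with replicate 3 alone was -0.45. COX4I1, the complex IV subunit that the symbol pattern missed, was at 367, 351 and 380 CPM in DMSO and 449, 433 and 426 CPM in copanlisib at 12 h (0.25, edgeR adjusted p = 0.000918). At 8 h it was 0.15 higher, and its change at 4 h did not pass (-0.10, and 0.08 with replicate 3 alone). ATP5IF1, the inhibitor of the ATP synthase, changed by 0.04 at most in size at the 3 times and was not called.

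Of 51 assembly factors, which build the complexes without staying in them, 19 were lower and 4 higher at 8 h, and 12 lower and 3 higher at 12 h, with medians of -0.08 and -0.09 (log2). For these lists the shares of all genes are those given above, 18.3% lower and 14.8% higher at 8 h and 16.5% and 13.8% at 12 h. At 8 h the lowest were PET117 (-0.998, complex IV), NDUFAF2 (-0.78) and NDUFAF4 (-0.51, both complex I) and COA7 (-0.67, complex IV). Between 4 and 12 h in DMSO, 20 rose and 7 fell. For that interval, here and in the lists that follow, 23.2% of all genes rose and 25.4% fell. Of 16 genes around the TCA cycle, which supplies the NADH and succinate that the chain oxidises, 6 were lower and 1 higher at 12 h (IDH3A and DLAT each at -0.29), while 12 rose and 2 fell with time in DMSO, with OGDH at 0.74 and FH at 0.66. For coenzyme Q synthesis, 3 of 13 were lower and 3 higher at both 8 and 12 h, with PDSS1, which makes the side chain, at -0.92 and -0.71, and COQ8A at 0.50 and 0.51.

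Regulators of mitochondrial genes mostly fell with time. Of 16 genes for transcription factors, coactivators and mitochondrial transcription and replication, 11 fell and 1 rose between 4 and 12 h in DMSO. Over all genes, 25.4% fell and 23.2% rose in that interval. The median of the 16 genes was -0.28 (log2), while the median of the members was 0.25. PPARGC1A, a coactivator of mitochondrial genes, changed by -2.18 ± 0.41 (log2 ± SE), a far wider error than the 0.04 of MYC. TWNK, the mitochondrial helicase, changed by -0.85, MYC by -0.59, and GABPB1, the partner of GABPA, by -0.55. NRF1 itself changed by -0.48. With copanlisib, 10, 6 and 6 were lower at 4, 8 and 12 h, and 1, 0 and 0 were higher in edgeR, with 2, 0 and 0 at an unadjusted p under 0.05 and 1, 0 and 0 in DESeq2. The shares of all genes at 4 h were 20.7% lower and 17.7% higher. At 4 h with replicate 3 alone 9 were lower and 0 higher in edgeR, with 0 higher at an unadjusted p under 0.05. PPRC1, a growth-responsive relative of PPARGC1A, was at 69.5, 74.8 and 72.8 CPM in DMSO and 43.7, 48.4 and 48.0 CPM in copanlisib at 8 h, and its changes were -0.86, -0.63 and -0.48 at 4, 8 and 12 h. MYC changed by -0.70, -0.69 and -0.60, TFAM, the mitochondrial transcription factor, by -0.06, -0.39 and -0.18, with the first not called. The 4 h changes with replicate 3 alone were -0.74 for PPRC1, -0.66 for MYC and -0.24 for TFAM, all called.

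The 13 subunits encoded in the mitochondrial genome are partners of the members within complexes I, III, IV and V. With copanlisib at 4 h, 12 were higher and 0 lower (median 0.31, log2), against 17.7% and 20.7% of all genes. At 8 and 12 h 0 passed in edgeR, DESeq2 or limma-voom, with 0 and 1 at an unadjusted p under 0.05 in edgeR. Replicates 1 and 2 at 4 h had the raised shares of reads on the mitochondrial genome given above, and with replicate 3 alone 1 of the 13 was higher and 0 lower (median 0.05), with 4 and 0 at an unadjusted p under 0.05 in edgeR. Between 4 and 12 h, 4 rose and 1 fell in DMSO (median 0.11), against 23.2% and 25.4% of all genes. With copanlisib 8 fell and 0 rose (median -0.19), against 26.3% and 25.6% of all genes. Likewise 0 rose with copanlisib at an unadjusted p under 0.05 or in DESeq2. With replicate 3 alone at 4 h, 3 fell and 4 rose with copanlisib (median 0.05). Over the same intervals 53 and 62 of the 79 nuclear-encoded members rose (67.1% and 78.5%).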

How the data were processed

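RNA was sequenced from 18 libraries of the HAIR-M line, and the authors deposited 1 table of raw read counts per gene for each library. Per the submitters' processing notes, CASAVA 1.7, STAR 2.5.2b and build hg38 were used, and the layout is that of STAR gene counts, with reads that map once. For the annotation, the version is not stated in the sources used here. Counts of the strand that held 94.3% to 95.3% of strand-assigned reads were used, although the kit named in the labels does not mark strand. Symbols came from a gene name table (56321 of 60483 identifiers) and GENCODE 29 (432), and lengths and GC content from the protein-coding GENCODE 29 transcript of median length. Unmapped, multimapping, featureless and ambiguous reads, which name no gene, stayed out of library sizes (67.5% to 75.2% of reads were in genes).

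Genes passing filterByExpr (16122 of 35239 with a read) were fitted on all 18 libraries with edgeR 4.0.16 (R 4.3.3), with TMM scaling, 1 mean per group, 12 residual degrees of freedom, and glmQLFTest, two-sided, with Benjamini-Hochberg adjustment over all genes tested. The common biological coefficient of variation was 0.05. The code was tested on simulated counts with known changes. Alternatives were a threshold of 0.01, DESeq2 size factors, no filter, counts without strand, a replicate block, a GC content and length offset, fits on the compared groups alone, DESeq2 1.42.0, limma-voom (limma 3.58.1), leaving out each library, and replicate 3 alone for copanlisib at 4 h. Named were, for each complex and comparison, the 3 lowest and 3 highest members past the threshold, the most abundant, all of complex II, members below the filter, those with an interaction, and up to 4 called genes of each other list; other genes named for context were chosen after their values were seen. The members and lists were chosen with earlier results of these data known. The values of 1 member are not reported here.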

Additional observations from a re-analysis of the deposited data

Results flagged for a closer look

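The copanlisib effect differed between 12 h and 4 h for 17 members by edgeR's interaction contrast (log2 difference, effect at 12 h minus effect at 4 h, Benjamini-Hochberg adjusted over all genes tested). In complex I the differences were 0.37 for NDUFA1, 0.54 for NDUFA11, 0.32 for NDUFA2, 0.22 for NDUFB10, 0.49 for NDUFB8, 0.42 for NDUFS7 and 0.36 for NDUFV1. In complex III they were 0.30 for CYC1, 0.31 for UQCR11, 0.28 for UQCRC1 and -0.69 for UQCRHL. In complex IV they were 0.30 for COX5B and 0.26 for COX6C. In complex V they were 0.25 for ATP5F1E, -0.24 for ATP5PD, -0.25 for ATP5PF and 0.32 for ATP5PO. With replicate 3 alone for copanlisib at 4 h, 1 of the 17, NDUFB8, passed the test. NDUFB8 kept its call under every alternative run, UQCR11 and UQCRHL kept theirs whichever library was left out, and the other 14 lost theirs without at least 1 library.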

How the results depend on the processing

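At 4 h the lower members numbered 15 at an adjusted p under 0.01, 7 when only the compared groups were fitted and 0 with replicate 3 alone for copanlisib, and 15 to 31 when 1 library was left out (15 without DMSO replicate 3 or copanlisib replicate 1). The higher members numbered 2 in the compared groups, 2 with replicate 3 only, and 4 to 12 when 1 library was left out (12 without copanlisib replicate 3). In the compared groups, 14.1% of all genes were lower and 10.6% higher at 4 h. NDUFB7 turned to 0.0798 with replicate 3 only.

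At 8 h the lower members numbered 2 at an adjusted p under 0.01, 2 with no filter on low counts, 12 in the compared groups, 3 in DESeq2 and 2 to 5 when 1 library was left out (2 without DMSO replicate 1 or 3 or copanlisib replicate 2 or 3, and 3 without copanlisib replicate 1). The higher numbered 2 with no filter, 4 with the GC content and length offset, also with the block, 8 in the compared groups, and 1 to 3 when 1 library was left out (3 without DMSO replicate 1).

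At 12 h the lower members numbered 10 with the offset, also with the block, 8 in the compared groups, and 2 to 6 when 1 library was left out (2 without DMSO replicate 3). The higher numbered 1 at an adjusted p under 0.01, 2 with no filter, 16 with the offset, also with the block, 17 in the compared groups, and 1 to 5 when 1 library was left out (1 without DMSO or copanlisib replicate 1). The effect differed between 12 and 4 h for 3 members at an adjusted p under 0.01, 6 in the compared groups, 1 with replicate 3 only, and 4 to 36 when 1 library was left out: 11, 5, 7, 4 and 36 without DMSO replicates 1 and 3 and copanlisib replicates 1, 2 and 3 at 4 h, and 7, 8 and 10 without DMSO replicates 1 and 2 and copanlisib replicate 1 at 12 h. Members that fell in DMSO numbered 1 at an adjusted p under 0.01, 5 with the offset, also with the block, and 1 to 3 when 1 library was left out (1 without replicate 2 at 4 h). The fit on fewer groups has fewer residual degrees of freedom and its own spread. The cause of the other changes was not tested. For most fits in this section, the share of all genes called is not given. Their counts are not read as a result about the members.

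Members that rose between 4 and 12 h numbered 47 to 63 in DMSO and 58 to 67 with copanlisib over all alternatives. The shares of all genes that rose in these fits are not given here, so the counts are not set against them.

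Little shared signal was seen by replicate number, with the correlation of deviations between same-numbered libraries running from -0.03 to 0.10. Such values cannot show whether same-numbered libraries were handled as pairs. A replicate block gave 25 lower and 6 higher members at 4 h, 4 and 1 at 8 h, 5 and 3 at 12 h, 19 for the effect at 12 h minus 4 h, and 54 rising in DMSO and 62 in copanlisib.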

Other observations

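Counting by strand changed the level of 6 of the 79 tested members: their counts on the used strand differed by over 10% from those without strand. NDUFS7 held 348% of its count without strand, ATP5ME 172%, NDUFA2 158%, ATP5PD 131%, ATP5MG 117% and NDUFB9 113%.

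Low counts limit 2 tested members. NDUFA7, an accessory subunit of complex I, had 7 to 26 reads per library and NDUFV2 28 to 90, while every other tested member had at least 108 in each library and ATP5F1B reached 28657.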
